A study of Mus musculus with 20 samples.

Results

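A set of 736 genomic regions was listed as common in every one of 4 comparisons of Bcl11b and Foxp3 chromatin immunoprecipitation (ChIP-seq) in mouse CD4+ T cells. They are called shared regions here. They were selected on the authors' common calls, as regions with the same chromosome, start and end in all 4 common lists, and they make up 736 of the 22081 distinct regions listed in the series. Because these calls chose them, their presence in each list is a description and was not tested.

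Bcl11b is a zinc-finger transcription factor needed for commitment to and upkeep of the T lineage. Foxp3, a forkhead transcription factor, defines regulatory T (Treg) cells, which restrain immune responses. Both act through enhancers and promoters, where T cells also use factors of the ETS and RUNX families, and ETS factors are known for binding close to transcription start sites of broadly active genes.

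The libraries came from cells sorted from draining lymph nodes and spleen of C57BL/6 mice. Bcl11b was precipitated in 2 libraries from KIKO cells, labelled as Treg cells devoid of Foxp3, which carried Foxp3-GFPKO and were sorted as CD4+GFP+. Foxp3 was precipitated in 2 libraries from Bcl11b-KO Treg cells, which were Bcl11b f/f and also carried Foxp3-IRES-YFP-Cre, and were sorted as CD4+YFP+. Wild-type (WT) Tn cells gave 3 Bcl11b libraries, and WT Treg cells gave 3 Bcl11b and 2 Foxp3 libraries. The WT Treg and WT Tn cells all carried Foxp3-IRES-YFP-Cre and were sorted as CD4+YFP+, as the labels give it, and Tn is not expanded there. Cre is driven from the Foxp3 locus, so Bcl11b is deleted in cells that have expressed Foxp3, and the WT cells carry the same Cre. Another 8 libraries were input DNA, for 20 samples in all. The sources used here give neither the age of the mice nor any pooling of animals. The labels do not say that replicates came from separate animals.

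The lists give mm10 positions alone, without scores or counts. The depth behind each call is therefore unknown, and the labelled cell types could not be checked against their markers. Each of the 4 comparisons has a list specific to either side and a common list. Of the regions listed in each comparison, the common list held 37.3% for KIKO against WT Treg Bcl11b, 59.7% for Bcl11b-KO against WT Foxp3, 62.1% for WT Treg against WT Tn Bcl11b, and 28.3% for WT Treg Bcl11b against WT Treg Foxp3. All 736 shared regions stand in each of these lists by the way they were chosen.

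Promoter sequences of 7 shared regions show the letters on which the motif results below turn. Each is the part of the region that lies inside the RefSeq promoter window of the named gene, which runs from 250 bases before to 50 bases after the start, in GRCm38.p6, whose coordinates are those of mm10. Capitals mark matches to any of 10 motifs on either strand. The 5 with the ETS letters were picked to show them, so their number says nothing of how common the letters are. Atp6v1d, which encodes a subunit of the vacuolar proton pump (chr12:78861589-78861888, minus strand), Ercc1, a DNA repair endonuclease gene (chr7:19344976-19345120, plus strand), Hnrnpf, which encodes an RNA-binding splicing regulator (chr6:117917044-117917302, plus strand), Nfkbie, an inhibitor of NF-kB (chr17:45555450-45555749, plus strand), and Nkiras2, an NF-kB inhibitor-interacting Ras-like gene (chr11:100622705-100622991, plus strand), hold the ETS letters CCGGAAG. Il21r, the receptor gene of interleukin 21 (chr7:125603256-125603478, plus strand), was included because a forkhead match and a RUNX match share bases there. Klf6, a Krüppel-like transcription factor gene (chr13:5861239-5861404, plus strand), was included for its 3 NF-Y matches and absence of the ETS letters.
Atp6v1d: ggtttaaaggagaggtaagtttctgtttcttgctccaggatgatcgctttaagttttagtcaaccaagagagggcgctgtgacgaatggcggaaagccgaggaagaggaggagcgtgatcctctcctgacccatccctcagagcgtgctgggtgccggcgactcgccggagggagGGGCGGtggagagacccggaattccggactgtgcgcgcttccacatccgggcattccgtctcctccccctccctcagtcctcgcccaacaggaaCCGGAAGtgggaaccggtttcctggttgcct
Ercc1: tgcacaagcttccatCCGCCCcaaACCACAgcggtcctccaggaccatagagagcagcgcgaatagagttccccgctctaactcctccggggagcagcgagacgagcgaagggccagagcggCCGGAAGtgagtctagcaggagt
Hnrnpf: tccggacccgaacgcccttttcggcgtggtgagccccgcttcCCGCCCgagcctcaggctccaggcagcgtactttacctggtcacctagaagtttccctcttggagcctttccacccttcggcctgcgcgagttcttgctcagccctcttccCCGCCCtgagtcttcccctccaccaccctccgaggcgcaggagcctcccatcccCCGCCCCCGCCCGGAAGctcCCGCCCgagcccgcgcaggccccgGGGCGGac
Nfkbie: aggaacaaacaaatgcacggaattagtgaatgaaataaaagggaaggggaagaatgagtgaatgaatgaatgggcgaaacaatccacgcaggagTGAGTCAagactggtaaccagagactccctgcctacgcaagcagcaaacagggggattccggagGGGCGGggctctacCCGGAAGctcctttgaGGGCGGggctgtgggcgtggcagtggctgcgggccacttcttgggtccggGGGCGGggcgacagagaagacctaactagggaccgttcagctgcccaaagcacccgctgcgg
Nkiras2: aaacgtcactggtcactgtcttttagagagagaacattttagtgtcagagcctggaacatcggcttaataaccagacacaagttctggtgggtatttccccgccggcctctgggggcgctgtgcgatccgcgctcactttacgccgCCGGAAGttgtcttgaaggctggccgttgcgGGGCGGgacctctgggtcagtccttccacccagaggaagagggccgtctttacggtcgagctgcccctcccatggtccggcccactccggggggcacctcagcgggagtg
Il21r: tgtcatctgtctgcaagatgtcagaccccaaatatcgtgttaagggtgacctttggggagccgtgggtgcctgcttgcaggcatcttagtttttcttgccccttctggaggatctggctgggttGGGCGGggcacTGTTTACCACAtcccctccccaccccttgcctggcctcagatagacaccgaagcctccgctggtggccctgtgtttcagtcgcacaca
Klf6: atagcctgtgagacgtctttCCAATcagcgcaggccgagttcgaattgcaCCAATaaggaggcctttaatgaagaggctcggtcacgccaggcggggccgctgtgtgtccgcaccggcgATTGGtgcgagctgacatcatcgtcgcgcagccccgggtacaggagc

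The shared regions lay at gene ends more often than the other regions did. The centres of 515 of the 736 shared regions (70.0%, Wilson 95% interval 66.6 to 73.2) fell within 1 kb of where a protein-coding gene begins or ends, against 7861 of 21345 other regions (36.8%, 36.2 to 37.5). Among all regions the share was 37.9%. Most of the other regions could not have been shared, because 76.7% of them were not listed in the KIKO comparison at all. The odds ratio was 4.0 (3.40 to 4.71; two-sided Fisher's exact test, p = 3.5e-71 after Benjamini-Hochberg adjustment over 6 tests). Among regions wider than 276 bp the shares were 72.2% and 51.4%, with an odds ratio of 2.45.

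Regions that came close to joining the set differed from it in the same direction. Of 649 regions common in the Tn, Foxp3 and Bcl11b-KO comparisons but listed as specific to WT Treg cells against KIKO, called KIKO-lost regions here, 56.1% (52.2 to 59.9) lay near a gene end, so the shared regions had 1.82 times their odds (1.45 to 2.29; adjusted p = 1.5e-07, Fisher's exact test). Of the 1397 regions common in exactly 3 lists, which include the KIKO-lost regions, 59.1% (56.5 to 61.6) did, for an odds ratio of 1.62 (1.33 to 1.96; adjusted p = 8.7e-07, Fisher's exact test). Each p compares regions of these lists and not conditions, and regions at 1 gene are not independent, so the p-values can be too small.

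Promoters gave a like result. A promoter window was overlapped by 425 of 736 shared regions (57.7%, 54.1 to 61.3), by 298 of 649 KIKO-lost regions (45.9%), by 635 of 1397 regions common in exactly 3 lists (45.5%) and by 4921 of 21345 other regions (23.1%). Over all regions the share was 24.2%. The other regions are the same 21345, most of them not listed in the KIKO comparison. The odds ratio of the shared regions was 1.61 against KIKO-lost regions (1.29 to 2.00; adjusted p = 1.2e-05), 1.64 against those in exactly 3 lists (1.36 to 1.97; adjusted p = 1.5e-07) and 4.56 against the other regions (3.92 to 5.31; adjusted p = 2.8e-86), all by Fisher's exact test. Among regions wider than 276 bp the last of these was 2.29, from 59.7% and 39.3%. Windows were at hand for 17492 of 21900 protein-coding genes, so these shares understate promoter overlap in every set. In a comparison added after the data were seen, limited to regions whose nearest gene has a window, 413 of 583 shared regions (70.8%) and 4870 of 17134 other regions (28.4%) overlapped one, for an odds ratio of 6.12.

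**Figure D1:**
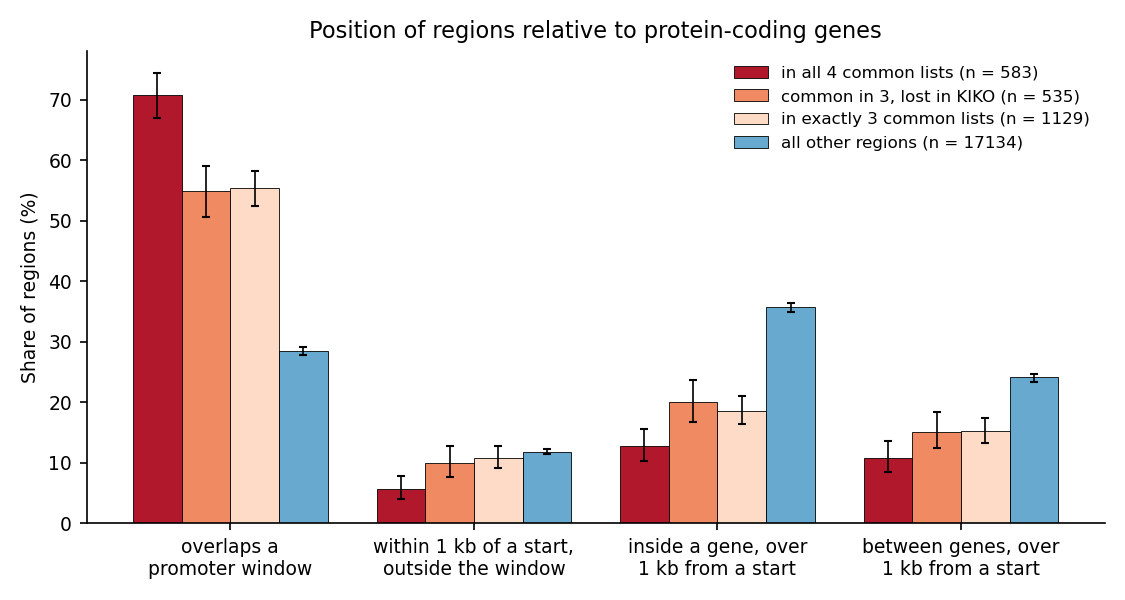
Share of regions (%) by position relative to protein-coding genes, for regions whose nearest gene has a promoter window; bars are shares, whiskers Wilson 95% intervals, and the legend gives the number of regions in each set. Of the shared regions 70.8% overlapped a promoter window, against 28.4% of the other regions, while 12.7% and 35.7% lay inside a gene over 1 kb from a start.

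The centres of the shared regions sat close to the start itself. This and the next description cover the 583 shared regions whose nearest gene has a window, and were added after the data were seen, with no test. In 306 of them (52.5%, 48.4 to 56.5) the centre was within 100 bp of a start, against 36.4% of KIKO-lost regions and 16.6% of the other regions. Of the 446 within 1 kb of a start, 269 were upstream and 173 downstream, with a median of -23 bp. The median was much the same for KIKO-lost regions, at -26 bp (204 upstream, 142 downstream), and the other regions, at -25 bp (3894 and 2986). Quartiles were -87.8 and 30.0 bp for shared, -118 and 45.0 bp for KIKO-lost and -146 and 109 bp for the other regions. At Stat5a, which encodes a signal transducer of interleukin 2, the centre of chr11:100860291-100860640 was at -19 bp, and at Itga4, the integrin alpha 4 gene, the centre of chr2:79255204-79255648 was at 0 bp.

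Paired promoters were also counted. Starts of genes on opposite strands lay within 1 kb of the centre at 62 of 583 shared regions (10.6%, 8.38 to 13.4), at 8.41% of KIKO-lost regions and at 4.22% of the other regions. Examples are chr12:78861350-78861955, near the starts of Atp6v1d and the translation initiation factor gene Eif2s1, and chr1:58445125-58445682, near those of Ppil3 and Nif3l1. Whether the paired genes point away from each other was not checked. At the other extreme, 9.78% of the shared regions and 28.8% of the other regions were over 10 kb from any start. Over all regions, with or without a window at the nearest gene, the centre was inside a gene body in 423 of 736 shared regions (57.5%) and 12913 of 21345 other regions (60.5%).

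**Figure D2:**
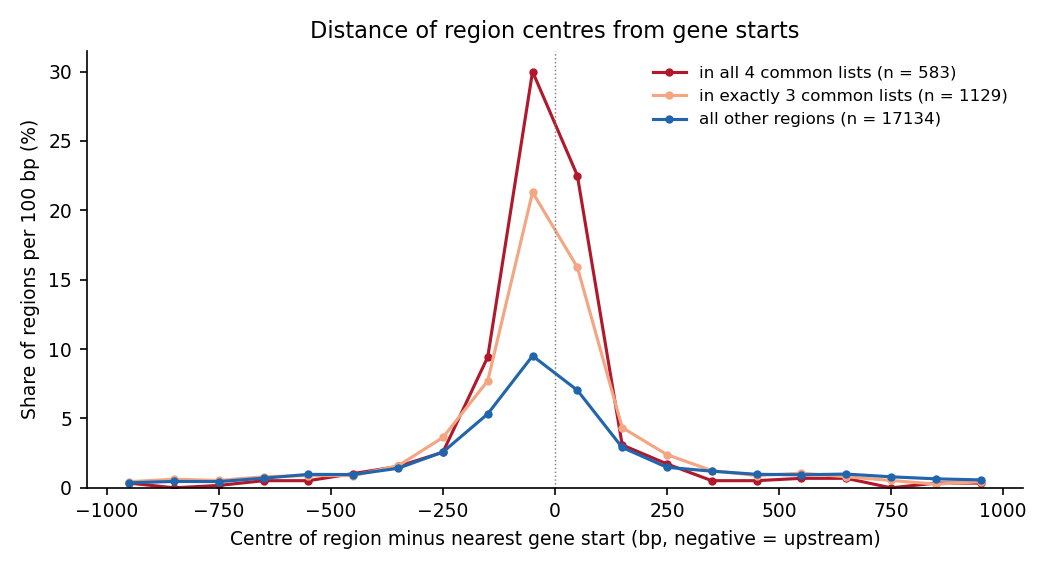
Share of regions per 100 bp (%) by the distance of the region's centre from the nearest gene start (bp, upstream negative), for shared regions, regions common in exactly 3 lists and all other regions whose nearest gene has a window. The bin just upstream of the start held 30.0% of the shared regions and 9.51% of the other regions.

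Shares moved with the number of common lists that held a region, a view added after the data were seen. Of the 4 comparisons, 3 involve WT Treg Bcl11b, so the number of lists also follows which factor a region was listed for. Among the 21345 other regions, 44.6% were listed as Foxp3-specific against WT Treg Bcl11b. In the Tn comparison 69.5% of them were not listed, and in the KIKO comparison 76.7%. The part of this in the shares was not tested. The share near a gene end was 24.1% for regions in 0 common lists, 40.4% in 1, 49.2% in 2, 59.1% in 3 and 70.0% in 4, and overlap of a promoter window was 12.1%, 25.4%, 34.8%, 45.5% and 57.7%. Widths moved with it as well. The shared regions were 220 to 794 bp wide, with a median of 341 bp and quartiles of 302 and 393 bp, and 88.3% were wider than 276 bp. KIKO-lost regions had a median of 335 bp with 85.7% wider than 276 bp, regions common in exactly 3 lists 323 bp with 76.6%, and the other regions 276 bp with 26.3%. Width may follow from the calls that chose the regions and was not tested. The part of width in the position results beyond the values above was not tested.

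**Figure D3:**
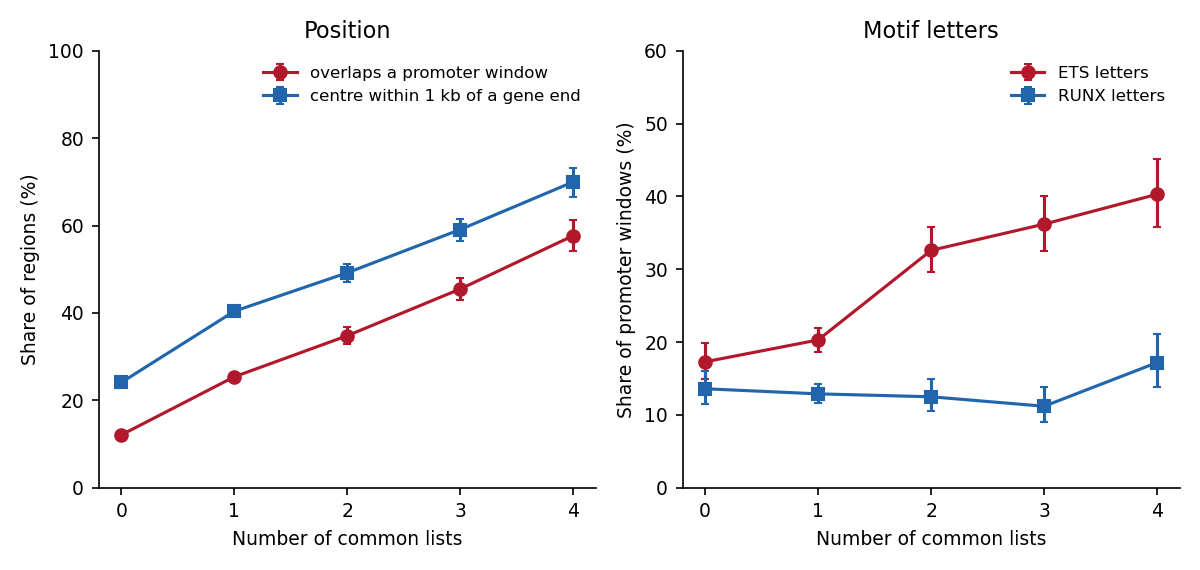
Left, share of all regions (%) whose centre is within 1 kb of a gene end or that overlap a promoter window; right, share of overlapped promoter windows (%) with the ETS and RUNX letters, each by the number of common lists that hold the region, with Wilson 95% intervals. Promoter overlap runs from 12.1% in 0 lists to 57.7% in 4, the ETS share from 17.3% to 40.3%, and the RUNX share stays between 11.2% and 17.2%.

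Not all of the shared regions are equally wide, and the narrowest bear on what the common lists mean. Each of the 5 region sets has a modal width, and 42 shared regions were exactly 276 bp wide, the modal width of Bcl11b-KO Foxp3, while 6 had the 252 bp of KIKO Bcl11b and none the 198 bp of WT Treg Bcl11b. In all, 86 were at most 276 bp wide. Whether a region of 1 set's modal width was also called as a peak in the other sets is not stated in the labels. A further 7 shared regions were also listed as specific in 1 comparison. Of these, 5 were in the Bcl11b-KO comparison, at Alyref2, Uqcc3, Ep400, Ercc1 and Trappc5, and 2 in the KIKO comparison, at Ufm1 and near the start of Zfp36l1.

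Just outside the set, 809 regions missed only the KIKO common list, 459 only that of Bcl11b-KO, 66 only that of Bcl11b and Foxp3 and 63 only that of Tn. Of the 809, 649 were listed as WT Treg-specific and 160 were not listed in that comparison. Of the 459, 263 were WT-specific, 21 Bcl11b-KO-specific and 175 not listed. Of the 66, 51 were Foxp3-specific, 9 Bcl11b-specific and 6 not listed. Of the 63, 26 were WT Treg-specific, 11 Tn-specific and 26 not listed. The 51 and the 11 were thus listed as specific to the other side against WT Treg Bcl11b. Yet the same regions were common in other comparisons with WT Treg Bcl11b. Calls for that set therefore differed between comparisons, which limits any set chosen on them. The reason was not tested.

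Genes with a shared region mostly held only 1, in a set that is 3.33% of all 22081 regions. No like count is given for a reference set. Assigning each centre to the nearest protein-coding gene within 100 kb placed 733 of them at 714 genes, which is 6.49% of the 11007 genes with any region. A single shared region was found at 695 genes and a pair at 19. The pairs included Lta, the lymphotoxin alpha gene, at chr17:35204542-35205096 and chr17:35210146-35210494, and Lfng, a modifier of Notch receptors. Lbh, a transcriptional regulator gene, had chr17:72917439-72917773 and chr17:72918178-72918539 beside its start, and Adnp, a homeobox gene, had 1 in its promoter window and 1 inside the gene. Ccdc71l, Ercc1, Ksr1, which encodes a scaffold of the MAP kinase pathway, Nkiras2 and Poc1b also carried 2 each. For Nkiras2, 1 of the 2 lay at the start of its neighbour Dnajc7.

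No other region was listed at 337 of these genes. A shared region was the only region of its gene in 45.1% of cases, against 31.4% for KIKO-lost regions and 25.5% for the other regions, and the nearest other region was a median of 8.06 kb away, against 5.52 and 5.69 kb, a distance described after the data were seen. The remaining 377 genes held 919 further regions. Their classes were close to those of all 21345 other regions. In the Bcl11b-KO comparison 48.1% of the 919 and 46.0% of all other regions were common, and 22.0% and 22.6% were WT-specific. In the KIKO comparison 4.57% and 6.53% were common, 16.4% and 16.5% WT Treg-specific, and 78.7% and 76.7% not listed.

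Genes central to Treg cells and to the precipitated factors were looked up first. Foxp3, Bcl11b, Il2ra, which encodes the interleukin 2 receptor alpha chain, the inhibitory receptor gene Ctla4, the chromatin organiser gene Satb1, the Ikaros family genes Ikzf2 and Ikzf4, and the cytokine gene Il10 had 0 shared regions, beside a share of 6.49% among all genes with a region. They were not bare of regions, with 1 at Foxp3, 4 at Bcl11b, 8 at Il2ra, 6 at Ctla4, 15 at Satb1, 6 at Ikzf2, 5 at Ikzf4 and 8 at Il10. The closest came at Bcl11b and Il2ra. At Bcl11b, chr12:107993095-107993393 was common in 3 comparisons and Tn-specific in the other, and chr12:107998719-107999043 was common in 3 and WT Treg-specific against KIKO. At Il2ra, chr2:11653334-11653671 was likewise common in 3 and WT Treg-specific against KIKO. The region at Foxp3, chrX:7583933-7584227, was common in the comparisons that involve Foxp3 binding and WT Treg-specific against both Tn and KIKO.

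Gene lists are given as the number of list genes with a shared region out of those with any region, for which the value over all protein-coding genes is 714 of 11007 (6.49%). Of the Treg signature 1 of 28 genes (3.57%, 0.633 to 17.7) had one. That gene was Itgae, the integrin alpha E gene, whose region lay within it at the start of Haspin, a kinase gene, with its centre at -77 bp. Among T cell receptor signalling genes 5 of 39 did (12.8%, 5.60 to 26.7), namely the adaptor gene Lcp2, Malt1, Plcg1, Vav1 and the kinase gene Zap70. The regions at Lcp2, Plcg1 and Zap70 were inside the genes, and that at Vav1, a guanine nucleotide exchange factor gene, was 2.15 kb from the gene end.

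T lineage transcription factors had 4 of 28 (14.3%, 5.70 to 31.5). These were the ETS gene Fli1, Klf6, the RUNX gene Runx1 and, as it stands on that list, the surface marker gene Thy1, whose region was 12.1 kb from the gene end. Immediate early and AP-1 genes had 4 of 26 (15.4%), made up of the phosphatase genes Dusp2, Dusp5 and Dusp6 and the nuclear receptor gene Nr4a1. Of these, the region at Dusp5 was 64.3 kb away, so the assignment to that gene rests on the 100 kb limit. NF-kB and NFAT genes had 2 of 22, at Nfkb2, with the centre at -94 bp, and Nfkbie, at -16 bp. Cytokine receptors and STAT genes had 2 of 32, at Il21r and Stat5a, and chemokine receptor and homing genes had 4 of 24, at Ccr9, Itga4, Itgae and the integrin alpha L gene Itgal.

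Lists of general cell functions gave counts of like size. The proteasome and ubiquitin list had 4 of 26 genes (15.4%), Fbxw7, Psmd1, Psmd3 and Ube2d3, and the housekeeping list 3 of 16, Hsp90ab1, the TATA-binding protein gene Tbp and Ywhaz. Ribosomal proteins had 3 of 37, at Rpl11, Rplp0 and Rps29. Chromatin regulators had 3 of 38, at Arid1a, the histone demethylase gene Kdm6b and Kmt2e. The RNA splicing list had 2 of 35, at Hnrnpf and Snrpd1, and the apoptosis list 0 of 18. Both lists are partial, and shared regions also lay at the splicing gene Snrpe and the apoptosis gene Dffb, which they do not hold. For markers of other cells, B cell genes had 0 of 6, CD8 and NK genes 0 of 8 and myeloid genes 1 of 5, the ETS gene Spi1. The intervals of all 16 lists are wide, no set test was run, and no list is set apart from the rest by these counts.

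**Figure D4:**
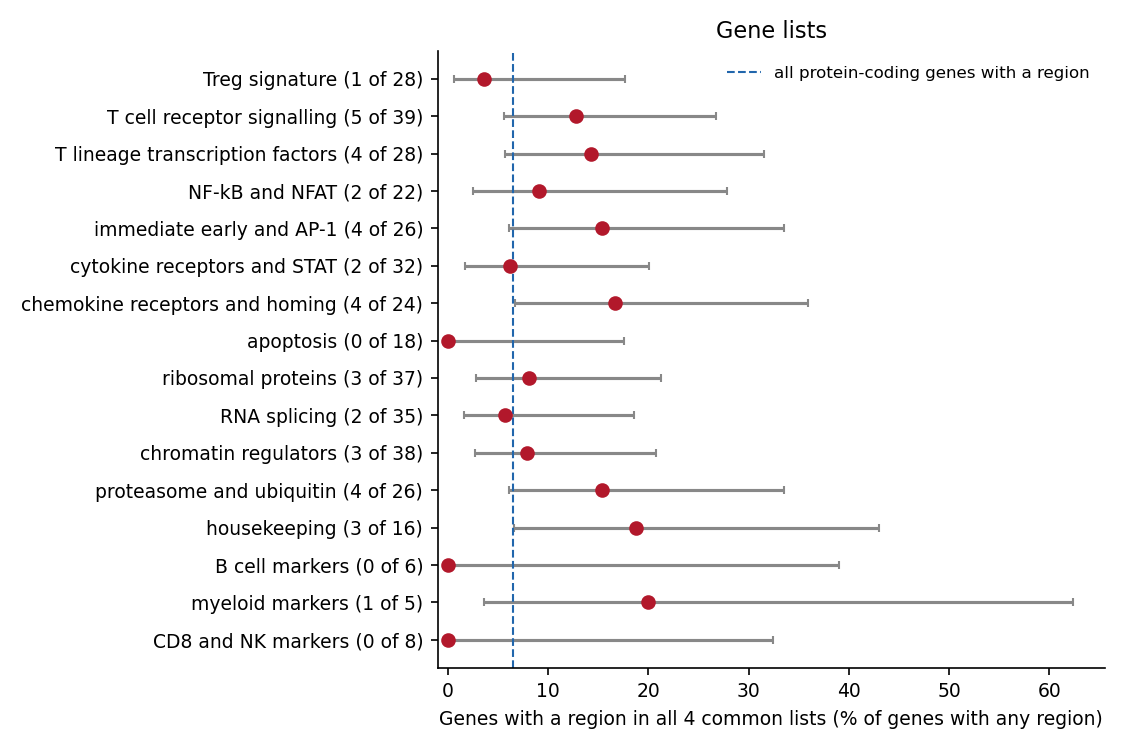
Share of the genes with any region that have a shared region (%), for each of 16 gene lists and for all protein-coding genes, with Wilson 95% intervals. The value over all protein-coding genes is 6.49%, the Treg signature stands at 3.57% and T cell receptor signalling at 12.8%.

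The widest shared region, 794 bp at chr8:84042053-84042846, lay at Il27ra, which encodes a receptor chain for interleukin 27. It was followed by 666 bp at Dph5, 610 bp at Padi2, 606 bp at Atp6v1d and 587 bp at Ybey, the last of these at the start of the neighbouring Mcm3ap. Rps29, Vps26c, Ppil3, Dxo and Ccdc77 completed the 10 widest, at 558 or 559 bp. The shared region farthest from a gene end was inside Nfia, a nuclear factor I gene, at chr4:97772405-97772823 and 195 kb from the nearer end. Another 3, on chromosomes 2, 10 and 9, were over 100 kb from any protein-coding gene, and 1 inside the actin-binding gene Ablim1 was 98.8 kb from a gene end. In all, 72 shared regions were over 10 kb from a gene end.

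Of 10 motifs searched in the promoter windows, the ETS and RUNX letters are described first because they were singled out after their values were seen. Both strands were searched, matches of different motifs may overlap and each was counted, and a match is a description of letters, not a site. The ETS letters CCGGAAG stood in 171 of 424 windows overlapped by a shared region (40.3%, 35.8 to 45.1). They stood in 38.3% (32.9 to 43.9) of windows at KIKO-lost regions, in 229 of 633 (36.2%) at regions common in exactly 3 lists, in 24.1% (22.9 to 25.3) at the other regions and in 5.42% of 15044 windows with no region. Over all 21263 windows the share was 11.6%. The intervals of the shared and the KIKO-lost regions overlap, and that of the other regions lies below both.

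Base composition and width were set beside this share, in views added after the data were seen. The median GC content was 61.0% in windows at shared regions, 61.3% at the other regions and 53.3% in windows with no region. The median ratio of observed to expected CpG was 0.834, 0.812 and 0.366 in the same order. The ETS letters hold a CpG, and the GC range used next was not matched on CpG, so the contrast with windows of no region is not adjusted for it. Within the interquartile GC range of the shared regions' windows, the ETS share was 45.0% at shared regions and 43.4% at KIKO-lost regions. There it was 40.1% at regions common in exactly 3 lists, 26.6% at the other regions and 8.25% with no region. Among regions wider than 276 bp the ETS share was 40.1% at shared regions and 27.6% at the other regions. At regions listed as Bcl11b-specific against Foxp3 it was 19.6%, from only 19 of 97 windows (12.9 to 28.6). At Foxp3-specific regions it was 20.2%, from 533 of 2645 windows (18.7 to 21.7). The ETS match was a median of 43.0 bp from the centre of the shared region and within 50 bp in 96 of 171 (56.1%). These values were 48.5 bp and 52.6% for KIKO-lost regions and 47.5 bp and 53.3% for regions common in exactly 3 lists. For the other regions they were 59.5 bp and 43.9%. Measured from the start instead, the median position of the ETS match was much the same in each set. It was -27.0 bp at shared regions, -23.5 bp at KIKO-lost regions, -25.0 bp at regions common in exactly 3 lists and -29.0 bp at the other regions. Centres of the shared regions lay closer to starts, as given above, and the part of this in the distances from the centre was not tested.

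The RUNX letters TGTGGT stood in 17.2% of windows at shared regions (13.9 to 21.1), 11.2% at regions common in exactly 3 lists (8.99 to 13.9), 12.7% at the other regions (11.8 to 13.7) and 15.9% of windows with no region, with 15.0% over all windows. The interval of the shared regions spans the share in windows with no region. Both the ETS and the RUNX letters, as in the Ercc1 sequence above, were counted together after the data were seen. They stood in 7.78% of windows at shared regions, 4.36% at KIKO-lost regions, 3.02% at the other regions and 1.46% of all windows. The forkhead letters TGTTTAC, the core recognised by proteins of the Foxp3 family, stood in 2.83% at shared regions (1.63 to 4.88), 3.12% at the other regions and 3.01% of all windows.

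Among the remaining motifs, the NF-Y letters CCAAT stood in 30.9% of windows at shared regions (26.7 to 35.4), 32.9% at KIKO-lost regions, 33.6% at regions common in exactly 3 lists, 41.0% at the other regions (39.6 to 42.4) and 38.2% of all windows. The SP/KLF letters GGGCGG stood in 63.7% at shared regions, 64.1% at KIKO-lost regions, 62.9% at regions in exactly 3 lists, 68.2% at the other regions and 46.2% of all windows. Shares at shared regions, at the other regions and over all windows were 10.4%, 13.6% and 7.84% for the E-box CACGTG, 7.08%, 8.09% and 6.24% for YY1 (AAGATGG), 4.01%, 4.79% and 6.99% for AP-1 (TGANTCA), 3.54%, 4.72% and 2.23% for CRE (TGACGTCA), and 2.83%, 2.02% and 1.33% for NRF1.

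**Figure D5:**
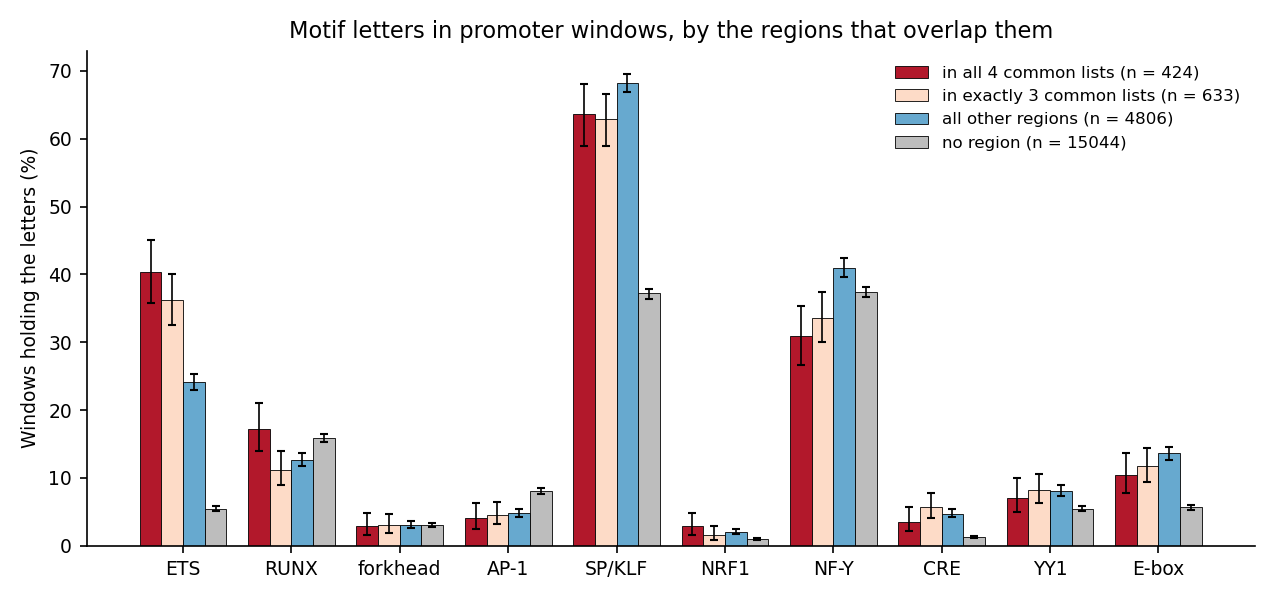
Share of promoter windows holding each motif's letters (%), by the regions that overlap the window, with Wilson 95% intervals. The ETS letters stand in 40.3% of windows at shared regions, 24.1% at the other regions and 5.42% of windows with no region, while the forkhead letters stand near 3.01% throughout.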

How the data were processed

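ChIP-seq of Bcl11b and Foxp3 was analysed from 12 lists of regions that the authors deposited, each with chromosome, start and end and no signal, score or p-value. The build was mm10, per the submitters' processing notes, which also name HOMER 4.10.1, deepTools and HISAT2 2.1.0, besides SAMtools 1.3, cutadapt 1.12, FastQC and Trim Galore 0.4.2, without their roles. Not given in the sources used here are peak thresholds, pooling of replicates and the rule for the common class. The description of the third WT Treg Bcl11b replicate names no list, and that of the second WT Treg Foxp3 replicate lacks the common list of both factors. Library depth is unknown, and intervals cover counting error only.

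Repeated rows (127) were dropped and regions matched by identical coordinates. Genes and the 300-base promoter windows came from RefSeq tables of GRCm38.p6. Windows were at hand for 565 of the 714 genes with a shared region and for none on chromosome 18, where 13 shared regions lie. For motif shares each overlapped window was counted once per set of regions, at the start nearest a region's centre. The 425 shared regions that overlap a window gave 424 windows, and the 4921 other regions gave 4806. Position shares were compared with two-sided Fisher's exact tests, adjusted over 6 tests; all else is described by counts and Wilson 95% intervals. The tests were checked on simulated data with independent draws, which cannot show the effect of dependence between regions at 1 gene. The regions, gene lists and motifs were chosen with earlier results of these data known. Genes were named by rule: 8 fixed genes, the first 10 by symbol of the 19 tied at 2 shared regions, those of the 10 widest and of the 5 farthest from a gene end, and up to 4 from each list; Zap70, Haspin, Zfp36l1 and other neighbours, and the genes of shared regions also listed as specific, were named after their values were seen. A gene that the rule names is not reported here. Sequences of 10 named genes were chosen by number of motif matches. The 7 shown were picked from these by eye and include all 5 with the ETS letters; Ccdc71l, Rplp0 and Ppil3, without them, are not shown. Tools were scipy 1.17.1, pandas 2.3.3, numpy 2.4.6 and, for figures, matplotlib 3.10.9, in Python 3.11.15. Sequence outside the promoter windows, and exons, introns and UTRs, were not analysed here.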

Additional observations from a re-analysis of the deposited data

How the results depend on the processing

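The number of shared regions was 736 with centres matched within 100 bp, 734 on autosomes, 729 without regions listed in 2 classes of 1 comparison and 650 above 276 bp in width. Under each other setting tried, including the 1 added after the data were seen (regions whose nearest gene has a window), each of the 6 position tests it applied to kept their direction and an unadjusted p under 0.05. Against the other regions the odds ratio near a gene end ranged from 2.45 (wide regions) to 4.19 (2.5 kb), and that of promoter overlap from 2.29 (wide regions) to 6.12 (the added alternative). The number of genes with a shared region was 702 within 20 kb and 1138 with gene bodies extended by 10 kb, against 714 as reported, because 1 region can then count for several genes. Motif shares among shared regions near a gene end lay within the intervals of the reported shares, with ETS at 40.9% and RUNX at 17.4%. No paired analysis was possible because the lists are per group and hold no value per replicate. Leaving out single replicates could not be run for the same reason. Unknown depth and unknown peak thresholds limit every count: a region absent from a list may have fallen under the threshold there.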

Other observations

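Gene families were counted by symbol after the shared regions had been seen, so the counts below are descriptions with no test. Of the mitochondrial ribosomal protein genes with any region, 12 of 57 (21.1%, Wilson 95% interval 12.5 to 33.3) had a shared region, among them Mrpl15, Mrpl34, Mrps2 and Mrps7, beside 6.49% of all protein-coding genes with any region. Vacuolar sorting genes (Vps) had 6 of 31, NADH dehydrogenase genes (Nduf) 5 of 32, translation initiation factor genes (Eif) 7 of 47, DEAD and DEAH box helicase genes 5 of 43, nucleoporin genes (Nup) 4 of 15 and Mediator genes 3 of 23. Proteasome genes by symbol had 6 of 41 and cytosolic ribosomal protein genes by symbol 8 of 75. Genes were matched by how the symbol begins, so these counts can take in genes outside the named family. Rpl7l1, Rps27l and Ndufaf3 were counted in this way. Zinc finger genes named Zfp had 14 of 252 (5.56%, 3.34 to 9.11).

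Several genes with known roles in T cells, picked by eye, also carried a shared region. The one at Gfi1, a transcriptional repressor gene, was chr5:107725355-107725708, with its centre 274 bp from the start, and that at Bcl6, the repressor gene of follicular helper cells, was chr16:23988409-23988684, 306 bp from the start. Btg2, an antiproliferative gene, had chr1:134078867-134079419, 12 bp from the start. Pdcd1, the gene of the inhibitory receptor PD-1, had chr1:94035196-94035670, 2.87 kb from the gene end, and Irf1, an interferon regulatory factor gene, had chr11:53763866-53764145, 6.01 kb away.

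Chromosomes and miRNA neighbours were also looked at after the data were seen, with no test. Of all regions 736 of 22081 (3.33%) were shared. The share was lowest among chromosomes X and 1 to 19 on chromosome X, with 2 of 403 (0.496%), at Nkap and Sh2d1a. It was highest on chromosome 15, with 46 of 879 (5.23%), and on the other autosomes it lay between 2.30% and 4.19%. A miRNA hairpin lay within 10 kb of 24 of 736 shared regions (3.26%) and of 605 of 21345 other regions (2.83%).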
